A study of Homo sapiens with 4 samples.

Results

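ATF4 and 9 genes of the amino acid stress response were examined in Jurkat cells, an established human T cell leukemia line, after transduction with lentiviral hairpins against the RNA SLEAR. The members were fixed by name as ATF4, DDIT3, TRIB3, ASNS, PSAT1, PHGDH, SHMT2, CHAC1, SESN2 and DDIT4. Each had 1 row among the 16328 transcript rows of the deposited table, so all 10 were measured. Cells with hairpins against SLEAR gave 3 libraries, labelled SLEAR shRNA with the numbers 1 to 3, and cells with a control shRNA, as the series' design text calls it, gave 1 library, labelled Control. All 4 libraries were from the same line, held polyadenylated RNA and were made by MAPS, a method that reads sequence next to the poly(A) tail. Whether the 3 numbers stand for distinct hairpins or for repeats is not stated, nor are separate cultures or the time after transduction. A p-value here can speak only for the scatter of these libraries, and that scatter may be technical. No row carried the name SLEAR, so the depth of the knockdown is not analysed here.

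ATF4 is a transcription factor of the bZIP family. When amino acids run short or proteins misfold, kinases phosphorylate the initiation factor eIF2, most translation slows, and the ATF4 messenger is translated more, so that its protein can rise without a change in its RNA. ATF4 then pairs with C/EBP and other bZIP proteins on short composite sites and turns on genes that make, import and charge amino acids. Under longer stress it also turns on DDIT3, which encodes CHOP, and genes that restrain growth or favour cell death. Lymphocytes are known to lean on serine and asparagine supply when they proliferate, and leukemic T cells vary in how much asparagine they can make themselves.

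The composite site is shown first because most of the members are known as targets of ATF4. RefSeq promoter windows, from 250 bases before to 50 bases after a gene's start in build GRCh38.p14, were found for 9 of the 10 genes and were searched on both strands for the letters TGATGNAA. A match was held by 2 of these 9 genes, ASNS and CHAC1, against 4.46% of all 27305 genes in the table and 2.57% of the 8719 genes with a tested row. A match says only that the letters are there. The windows with a match are printed below with the match in capitals, on the strand of the gene, together with the window of PHGDH, which held none and which is the 1 member called in a fit further on.
ASNS promoter, chr7:97872359-97872658, minus strand: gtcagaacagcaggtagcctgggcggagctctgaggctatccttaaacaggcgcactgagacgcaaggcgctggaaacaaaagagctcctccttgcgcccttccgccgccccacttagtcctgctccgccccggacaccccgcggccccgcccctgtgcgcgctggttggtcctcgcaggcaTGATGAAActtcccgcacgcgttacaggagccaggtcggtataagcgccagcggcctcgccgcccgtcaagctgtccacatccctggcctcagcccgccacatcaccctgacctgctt
CHAC1 promoter, chr15:40953221-40953520, plus strand: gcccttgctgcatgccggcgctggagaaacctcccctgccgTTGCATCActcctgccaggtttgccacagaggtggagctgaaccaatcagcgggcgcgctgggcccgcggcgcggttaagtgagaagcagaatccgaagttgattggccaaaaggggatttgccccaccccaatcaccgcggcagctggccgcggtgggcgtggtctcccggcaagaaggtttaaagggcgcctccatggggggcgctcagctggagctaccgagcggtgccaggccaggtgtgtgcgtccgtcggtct
PHGDH promoter, chr1:119711684-119711983, plus strand: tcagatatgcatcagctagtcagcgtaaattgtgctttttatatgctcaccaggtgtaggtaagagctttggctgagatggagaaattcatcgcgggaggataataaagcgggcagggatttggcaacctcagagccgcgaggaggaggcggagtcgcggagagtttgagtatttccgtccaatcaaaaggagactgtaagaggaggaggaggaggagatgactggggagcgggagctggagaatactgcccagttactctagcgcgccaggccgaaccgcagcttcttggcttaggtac
ASNS has a pair of windows in the table, of which the one printed held the match. It began 68 bases before the gene's start and read along the gene. The match of CHAC1 began 209 bases before the start and lay on the opposite strand. The windows of ATF4, DDIT3, TRIB3, PSAT1, SESN2 and DDIT4 held none, which says only that these letters are absent from these windows.

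Levels are given in RPM, a read number that the authors scaled to the size of each library. Depth, estimated from the step between low values, was 4814166 to 7524253 reads with SLEAR shRNA, lowest in SLEAR shRNA-3, and 8384889 reads in Control. By counting alone, a value of 0 allows up to 3 reads, or 0.399 to 0.623 RPM in the SLEAR shRNA libraries and 0.358 RPM in Control. SLEAR shRNA-3 stood apart from the other libraries. Across tested rows its log2 values correlated with those of the other 3 libraries at a Pearson r of 0.878 to 0.886, while SLEAR shRNA-1 and -2 correlated at 0.977. It had 42.5% of its rows at 0, against 14.2% to 16.2% in its fellow SLEAR shRNA libraries and 18.3% in Control. A band of 953 rows at 8 to 16 RPM in these fellow libraries held 75 rows with no read in SLEAR shRNA-3 and 0 such rows in Control. Low values there are therefore uncertain beyond counting error, and the fitted difference of each of the 10 genes is given with and without that library. Rows that averaged 4 or more on the log2(RPM + 1) scale over the 4 libraries, 4851 of the 12350 tested, are called well measured below. The defining T cell genes CD3D and CD3E were present, CD3D at 1590.0 to 1966 RPM with SLEAR shRNA and 1580 RPM in Control. A further gene of the CD3 complex, CD3G, was at 0 RPM in every SLEAR shRNA library and at 0.24 RPM in Control. Among markers of other cell types, ITGAM and KRT18 were at 0 in every library, and the summed level of the 12 rows of that list was 35.0 to 38.6 RPM with SLEAR shRNA against 32.4 RPM in Control. CD79A, a B cell gene, made up 18.3 to 21.6 RPM of it with SLEAR shRNA and 12.05 RPM in Control.

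ATF4, ASNS and PHGDH were each higher in every SLEAR shRNA library than in Control. PHGDH, the enzyme that commits a glycolytic intermediate to serine synthesis, had the smallest p of the members in both fits, and it was the 1 member of 6 tested that passed in the fit without SLEAR shRNA-3, where 14.4% of all rows passed, so that 1 call is near the background. CHOP, SESN2 and TRIB3, which are known to climb with the stress arm of the response, had low levels that in SLEAR shRNA-1 and -2 lay within the counting intervals of Control. CHAC1, at 10.9 and 11.96 RPM in these libraries, lay above the Control interval of 6.61 to 10.7 RPM, but its own intervals overlapped it. In SLEAR shRNA-3 CHAC1 was below Control. DDIT4 lay below the Control interval of 35.8 to 44.5 RPM in SLEAR shRNA-1, at 29.8 RPM, and within it in SLEAR shRNA-2, at 36.0 RPM. Levels were measured in bulk RNA, in which fewer cells of a kind and less RNA per cell cannot be told apart.

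**Figure D1:**
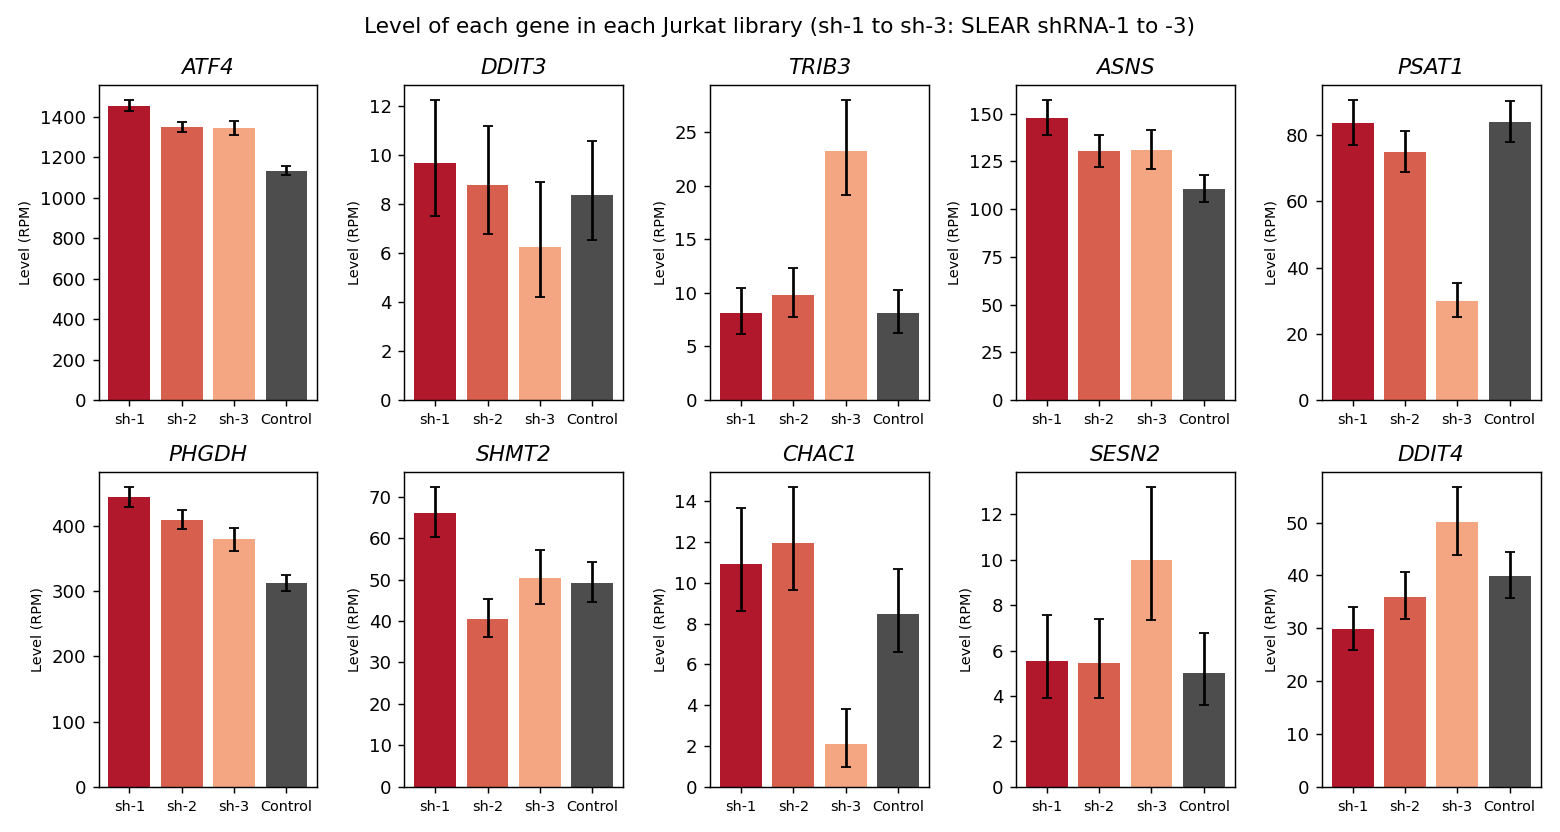
Level of each of the 10 genes in RPM (y axes, each from 0) across SLEAR shRNA-1, -2 and -3 and in Control (x axes). Bars are single libraries and lines are exact 95% Poisson intervals, which cover counting error only. ATF4, ASNS and PHGDH are higher in all 3 SLEAR shRNA libraries, while PSAT1, CHAC1 and TRIB3 are set apart by SLEAR shRNA-3.

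ATF4 was measured at 1455, 1350.2 and 1345 RPM across SLEAR shRNA-1, -2 and -3 and at 1135 RPM in Control, which is 10257, 10159 and 6475 estimated reads against 9515. All 3 SLEAR shRNA libraries were above Control, and their counting intervals did not reach that of Control. The mean was 1383 ± 62.2 RPM with SLEAR shRNA (SD, n = 3), and on the log2(RPM + 1) scale the difference from Control was 0.28 ± 0.19 (SE; limma-trend, adjusted p = 0.993). Without SLEAR shRNA-3, over the well measured rows, it was 0.30 ± 0.12 (SE; limma-trend, unadjusted p = 0.00953, adjusted p = 0.0607), so the difference did not pass. Under 6 alternatives of that fit the adjusted p ranged between 0.0326 and 0.0644, and quantile normalization was the 1 alternative under the threshold of 0.05. ATF4 has 4 named pseudogenes in the GENCODE 29 annotation that could share its reads, and the treatment of such reads by the authors is not stated.

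DDIT3 encodes CHOP, a bZIP partner of ATF4 that favours cell death under lasting stress. It was measured at 9.65, 8.77 and 6.23 RPM across SLEAR shRNA-1, -2 and -3 and at 8.35 RPM in Control, from 68, 66 and 30 reads against 70. The groups overlapped, with SLEAR shRNA-3 the lowest. On the log2 scale it differed by -0.040 ± 0.61 (SE) with all libraries and by 0.13 ± 0.29 (SE) without SLEAR shRNA-3, so its sign depended on that library (limma-trend, adjusted p = 0.997 and 0.846). DDIT3 overlaps MARS and MBD6 on the opposite strand in GENCODE 29. Since counting by strand is not stated, reads of these genes cannot be told apart where they overlap. MARS, the methionyl-tRNA synthetase, was at 113, 93.7 and 105 RPM across SLEAR shRNA-1, -2 and -3 and 92.5 RPM in Control. On its own strand DDIT3 overlaps AC022506.1 and MIR616 in that annotation.

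TRIB3 is a pseudokinase that is induced by ATF4 and CHOP and damps them in turn. It was measured at 8.09, 9.83 and 23.3 RPM across SLEAR shRNA-1, -2 and -3 and at 8.11 RPM in Control. SLEAR shRNA-3 alone was high, at 112 reads, and SLEAR shRNA-1 was level with Control. TRIB3 differed by 0.55 ± 0.76 (SE) on the log2 scale with all libraries and by 0.12 ± 0.31 (SE) without SLEAR shRNA-3 (limma-trend, adjusted p = 0.993 and 0.858). In that library a gap of this size was common: 41.2% of the 7499 tested rows that were not well measured lay at least as far from the mean of SLEAR shRNA-1 and -2.

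The enzymes of amino acid synthesis had differences of both signs. ASNS, asparagine synthetase and a classic ATF4 target, was measured at 148, 130.2 and 131 RPM across SLEAR shRNA-1, -2 and -3 and at 111 RPM in Control. All 3 SLEAR shRNA libraries were above Control and had counting intervals apart from it. The log2 difference was 0.30 ± 0.20 (SE) with all libraries and 0.32 ± 0.17 (SE) without SLEAR shRNA-3, and it passed in neither fit (limma-trend, adjusted p = 0.993 and 0.186). ASNS kept nearly the same level relative to ATF4 within each library, with a ratio of 0.102, 0.0965 and 0.0975 across SLEAR shRNA-1, -2 and -3 and 0.0976 in Control. ASNS also has 4 named pseudogenes in GENCODE 29. It overlaps AC005326.1 on the opposite strand and AC079781.5 on its own strand in that annotation.

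PHGDH was measured at 444, 409.7 and 379.5 RPM across SLEAR shRNA-1, -2 and -3 and at 312 RPM in Control, from 3132, 3083 and 1827 reads against 2618. All 3 SLEAR shRNA libraries were above Control, with counting intervals apart from it, and averaged 411 ± 32.4 RPM (SD, n = 3). With all libraries the log2 difference was 0.39 ± 0.19 (SE) and did not pass (limma-trend, unadjusted p = 0.0978, adjusted p = 0.993). Without SLEAR shRNA-3, over the well measured rows, PHGDH rose 1.37-fold on the log2(RPM + 1) scale, a log2 difference of 0.45 ± 0.14 (SE; limma-trend, adjusted p = 0.0148), and it stayed under the threshold in all 6 alternatives of that fit, with an adjusted p of at most 0.0332. Both restrictions were needed: without SLEAR shRNA-3 but over all 12350 tested rows the adjusted p was 0.368. That fit rests on 1 degree of freedom per row, with the spread pooled over all rows, and it was chosen with earlier results of these data known.

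PSAT1, the aminotransferase that follows PHGDH in serine synthesis, had no such rise. It was measured at 83.6, 74.8 and 29.9 RPM across SLEAR shRNA-1, -2 and -3 and at 83.8 RPM in Control. All 3 SLEAR shRNA libraries were below Control, but SLEAR shRNA-1 by a margin far inside its counting interval, and the low value was that of SLEAR shRNA-3. Its log2 difference was -0.54 ± 0.65 (SE) with all libraries and -0.083 ± 0.18 (SE) without SLEAR shRNA-3, and neither passed (limma-trend, adjusted p = 0.993 and 0.808). The distance of SLEAR shRNA-3 from the mean of SLEAR shRNA-1 and -2 was reached by 6.80% of the well measured rows. Within a library, the level of PHGDH relative to PSAT1 was 5.32, 5.48 and 12.7 across SLEAR shRNA-1, -2 and -3 and 3.72 in Control. PSAT1 too has 4 named pseudogenes in GENCODE 29.

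SHMT2, the mitochondrial enzyme that splits serine into glycine and a folate-bound carbon, was measured at 66.1, 40.5 and 50.3 RPM across SLEAR shRNA-1, -2 and -3 and at 49.1 RPM in Control. The SLEAR shRNA libraries lay on both sides of Control. SLEAR shRNA-1 was 0.69 above SLEAR shRNA-2 on the log2 scale, a gap that 1.57% of the well measured rows reached, while for the other 9 members this pair differed by at most 0.27 in size. The log2 difference from Control was 0.060 ± 0.35 (SE) with all libraries and 0.075 ± 0.21 (SE) without SLEAR shRNA-3 (limma-trend, adjusted p = 0.994 and 0.847).

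The outputs of stress were low or divided. CHAC1, which degrades glutathione and is a sensitive target of ATF4, was measured at 10.9, 11.96 and 2.08 RPM across SLEAR shRNA-1, -2 and -3 and at 8.47 RPM in Control. SLEAR shRNA-1 and -2 were above Control and SLEAR shRNA-3, at 10 reads, was below it. CHAC1 had a log2 difference of -0.28 ± 1.08 (SE) with all libraries and 0.39 ± 0.27 (SE) without SLEAR shRNA-3, so its sign again depended on that library (limma-trend, adjusted p = 0.993 and 0.533). SLEAR shRNA-3 lay at least as far from the other SLEAR shRNA libraries in 18.4% of the 7499 tested rows that were not well measured.

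SESN2, a leucine sensor that holds back mTORC1 when amino acids are scarce, was measured at 5.53, 5.45 and 9.97 RPM across SLEAR shRNA-1, -2 and -3 and at 5.01 RPM in Control. All 3 SLEAR shRNA libraries were above Control, but at 39, 41 and 48 reads against 42 the intervals of SLEAR shRNA-1 and -2 overlapped that of Control. For SESN2 the log2 difference was 0.36 ± 0.71 (SE) with all libraries and 0.11 ± 0.34 (SE) without SLEAR shRNA-3 (limma-trend, adjusted p = 0.993 and 0.883). No difference was thus detected in SLEAR shRNA-1 or -2. The interval of SLEAR shRNA-3, 7.35 to 13.2 RPM, lay apart from that of Control, 3.61 to 6.77 RPM. Of the 7499 tested rows that were not well measured, 67.4% had SLEAR shRNA-3 at least as far from the mean of SLEAR shRNA-1 and -2.

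DDIT4, or REDD1, which restrains mTORC1 through the TSC complex, was measured at 29.8, 36.0 and 50.1 RPM across SLEAR shRNA-1, -2 and -3 and at 39.95 RPM in Control. SLEAR shRNA-1 and -2 were below Control and SLEAR shRNA-3 was above it. For DDIT4 the log2 difference was -0.080 ± 0.38 (SE) with all libraries and -0.28 ± 0.23 (SE) without SLEAR shRNA-3 (limma-trend, adjusted p = 0.993 and 0.455). An antisense gene, DDIT4-AS1, overlaps it in GENCODE 29.

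**Figure D2:**
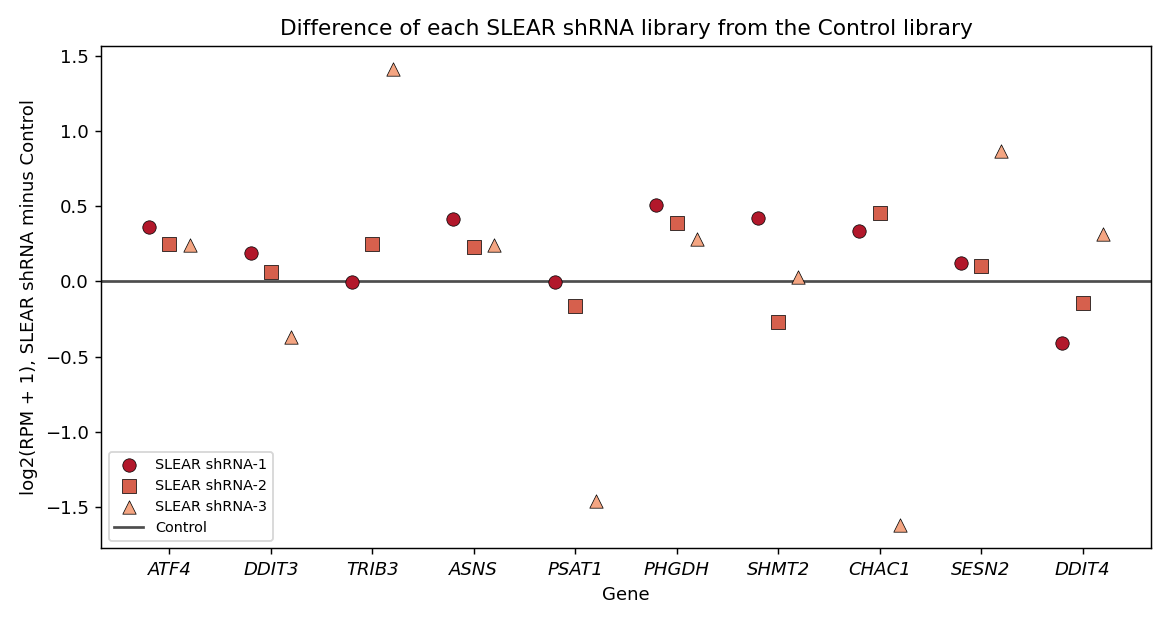
Difference of each SLEAR shRNA library from the Control library on the log2(RPM + 1) scale (y axis) for the 10 genes (x axis). Points are single libraries and the line at 0 is Control. SLEAR shRNA-1 lies at 0.36, 0.41 and 0.51 for ATF4, ASNS and PHGDH, and SLEAR shRNA-3 gives the farthest points, at 1.41 for TRIB3, -1.46 for PSAT1 and -1.62 for CHAC1.

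Counted together, 4 of the 10 members (ATF4, ASNS, PHGDH and SESN2) were higher in all 3 SLEAR shRNA libraries, beside 17.8% of all 12350 tested rows, and 1 (PSAT1) was lower in all 3, beside 28.6%. Among the 6 well measured members these counts were 3 and 1, beside 25.0% and 25.6% of the 4851 rows of that class. In SLEAR shRNA-1 and -2 alone, 6 members were above Control and 2 below, beside 35.2% and 41.0% of tested rows. All such counts share the 1 Control library. The median log2 difference of the members was 0.26, 0.17 and 0.24 across SLEAR shRNA-1, -2 and -3, and that of all tested rows was -0.022, -0.037 and -0.23.

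In the limma-trend fit of all libraries, 0 of the 10 members passed an adjusted p of 0.05, where 0.0% of 12350 rows did so, and 0 had an unadjusted p under 0.05, where 2.68% of rows did. Limma-voom on the estimated reads also gave 0 and 0 members. In the fit without SLEAR shRNA-3, 1 of the 6 members tested passed, where 14.4% of 4851 rows passed, 7.11% higher and 7.26% lower. The changes of these members were not among the large ones of that fit either: 76.4% of its rows had a log2 difference no larger in size than that of PHGDH, 61.6% than that of ASNS and 58.6% than that of ATF4.

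**Figure D3:**
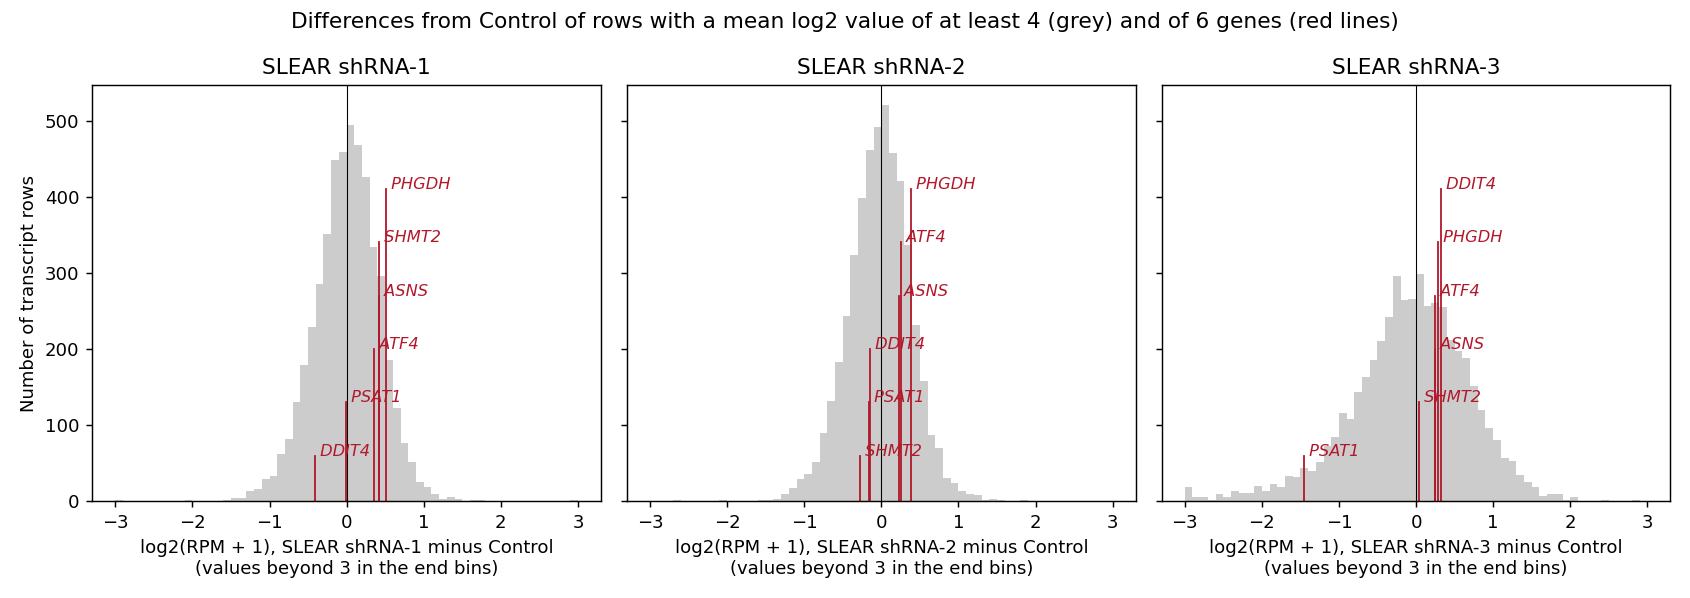
Log2(RPM + 1) differences from Control (x axes) of the 4851 well measured rows (grey, number of rows on the y axis) across SLEAR shRNA-1, -2 and -3. Red lines mark the 6 members at that level, with heights chosen for legibility. ATF4, ASNS and PHGDH lie to the right of 0 in each library, inside the bulk of rows, and PSAT1 lies far to the left in SLEAR shRNA-3.

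Across the 3 differences from Control, the pattern of ATF4 was nearest, by Euclidean distance among 4850 other well measured rows, to those of RARS, PSMC5, DALRD3, ASNS and SASH3, at 0.0184 to 0.0598. RARS is the arginyl-tRNA synthetase and PSMC5 a subunit of the proteasome. ASNS was therefore in position 4, while PHGDH was in position 151, SHMT2 in 1310, DDIT4 in 2518 and PSAT1 in 4436. The pattern of PHGDH was nearest to those of OXLD1, IGSF8, MED27, LYRM5 and IDH2. These rankings rest on 3 values per row that share 1 Control and are a description.

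The wider pathway was read from lists chosen with earlier results of these data known, leaving the members out, with calls, folds and medians from the fit without SLEAR shRNA-3 unless stated. With all libraries, limma-trend and limma-voom each called 0 rows in every list, and at an unadjusted p under 0.05 limma-trend had 1 row over all lists, VARS, and limma-voom had 3. Upstream, none of the 9 tested rows, which hold subunits of eIF2 and eIF2B and the brakes DNAJC3 and PPP1R15A, passed in either direction by limma-trend or limma-voom, and 2 had an unadjusted p under 0.05 by each (median log2 difference -0.073, and -0.16 over 15 rows with all libraries). EIF2S2, a subunit of eIF2, had 62.4, 57.7 and 44.2 RPM against 44.5 RPM in Control. DNAJC3, an inhibitor of eIF2 kinases, had 68.4, 88.6 and 78.1 RPM across SLEAR shRNA-1, -2 and -3 and 107 RPM in Control, a log2 difference of -0.46 ± 0.18 (SE; limma-trend, adjusted p = 0.0693). The 4 kinase genes EIF2AK1, EIF2AK2, EIF2AK3 and EIF2AK4 were too low to be tested there. Of 5 rows for bZIP partners and other stress factors, 1 was higher and 0 lower, and the median log2 difference was -0.57, and -0.42 over 11 rows with all libraries. BATF3, an AP-1 family factor, rose 1.48-fold, with 77.9, 63.8 and 63.8 RPM against 47.3 RPM in Control (limma-trend, adjusted p = 0.0332). ATF3, a common target of ATF4, went the other way without passing, with 19.3, 19.3 and 15.8 RPM against 32.2 RPM in Control (log2 difference -0.71 ± 0.27, SE; limma-trend, adjusted p = 0.058). Limma-voom gave it an adjusted p of 0.0369, and its adjusted p over 6 alternatives reached 0.0783. CEBPB, a partner of ATF4 on the composite site, had 27.4, 24.6 and 46.9 RPM against 38.9 RPM in Control and did not pass.

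Of 7 rows for serine, glycine and folate enzymes, 0 were higher and 1 lower, with a median log2 difference of -0.36 beside 0.0029 for all rows of the fit. With all libraries it was -0.41 over 11 rows, beside -0.11 for all tested rows. The row that fell was TYMS, thymidylate synthase, which uses folate carbon to make a DNA building block. It had 934, 859 and 751 RPM against 1192 RPM in Control, 1.33-fold lower in that fit (limma-trend, adjusted p = 0.0101). PSPH, the phosphatase that ends serine synthesis after PHGDH and PSAT1, had 18.3, 21.5 and 15.8 RPM across SLEAR shRNA-1, -2 and -3 and 31.6 RPM in Control. It was lower in all 3 SLEAR shRNA libraries without passing (log2 difference -0.64 ± 0.27, SE; limma-trend, adjusted p = 0.0898). The 3 steps of serine synthesis thus had log2 differences of 0.45 for PHGDH, -0.083 for PSAT1 and -0.64 for PSPH, of which only that of PHGDH passed. MTHFD2, a mitochondrial folate enzyme and known ATF4 target, had 17.9, 17.4 and 21.2 RPM against 16.5 RPM in Control, and its relative MTHFD1L had 74.9, 70.04 and 63.8 RPM against 93.5 RPM, and neither passed.

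Among 9 rows for proline, transsulfuration, transaminase and related enzymes, 2 were higher and 0 lower, with a median log2 difference of 0.095, and 0.073 over 15 rows with all libraries. CBS, which joins serine to homocysteine, rose 1.51-fold without SLEAR shRNA-3, with 115 RPM in SLEAR shRNA-1, 92.6 RPM in SLEAR shRNA-2 and 68.0 RPM in Control, but SLEAR shRNA-3 was lower at 49.2 RPM (limma-trend, adjusted p = 0.0132). GOT2, the mitochondrial aspartate aminotransferase, rose 1.30-fold, with 428, 399 and 337 RPM against 317 RPM (limma-trend, adjusted p = 0.0453), and lost the call under quantile normalization. None of 10 rows for amino acid transporters passed by limma-trend or limma-voom, and 1 and 2 of them had an unadjusted p under 0.05 (median log2 difference -0.015, and -0.13 over 16 rows with all libraries). SLC7A11, the cystine importer and an ATF4 target, had 10.8, 11.8 and 31.6 RPM against 18.0 RPM in Control. It entered the fit without SLEAR shRNA-3 through its value in that library. With the minimum set over Control, SLEAR shRNA-1 and -2 it was not tested. SLC7A5, a leucine importer, had 1232, 1115 and 916 RPM against 1044 RPM.

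Cytosolic aminoacyl-tRNA synthetases, which load amino acids onto tRNAs and include many ATF4 targets, had 4 rows higher and 0 lower among 16 tested. Their median log2 difference was 0.29. With all libraries the median of the list was 0.16 over 21 rows, 1 of which was XPOT, a tRNA export factor rather than a synthetase. VARS rose 1.61-fold, with 97.9, 109 and 116 RPM across SLEAR shRNA-1, -2 and -3 and 63.7 RPM in Control (limma-trend, adjusted p = 0.00325). KARS rose 1.36-fold, with 704, 675 and 651 RPM against 506 RPM (limma-trend, adjusted p = 0.00885). SARS rose 1.55-fold in its better measured row, with 73.8, 80.7 and 60.4 RPM against 49.4 RPM (limma-trend, adjusted p = 0.0131). Another SARS row, at 8.51, 4.25 and 0 RPM against 7.99 RPM in Control, was too low to be tested in that fit. These rows of VARS, KARS and SARS were among 8 rows, of 21 tested with all libraries, that were higher in every SLEAR shRNA library. Of all 12350 tested rows 17.8% were so, and of the well measured rows 25.0%. The 1 row of the list that was lower in every one was XPOT, beside 28.6% of all tested rows. XPOT had 6.81, 11.2 and 10.8 RPM across SLEAR shRNA-1, -2 and -3 and 20.6 RPM in Control. QARS rose 1.39-fold without SLEAR shRNA-3, with 197, 180.5 and 128 RPM against 136 RPM in Control, and so was lower in SLEAR shRNA-3 (limma-trend, adjusted p = 0.0288), and it lost the call under quantile normalization.

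Of 19 rows for mTORC1 and its regulators, on which SESN2 and DDIT4 act, 1 was higher and 2 lower, with a median log2 difference of 0.026, which turned to -0.076 over 31 rows with all libraries. RHEB, the GTPase that switches mTORC1 on, was 2.19-fold lower, with 11.3, 10.2 and 19.9 RPM across SLEAR shRNA-1, -2 and -3 and 24.8 RPM in Control (limma-trend, adjusted p = 0.0108). It entered that fit through its value in SLEAR shRNA-3, and with the minimum set over Control, SLEAR shRNA-1 and -2 it was not tested. TSC1, of the complex that switches RHEB off, was 1.44-fold lower, with 66.5, 55.3 and 67.7 RPM against 87.7 RPM (limma-trend, adjusted p = 0.0453), and lost the call under quantile normalization. EIF4EBP1, a translation repressor that mTORC1 inactivates and a known ATF4 target, rose 1.54-fold, with 39.6, 40.5 and 35.7 RPM against 25.6 RPM (limma-trend, adjusted p = 0.0496), and kept the call in 2 of 6 alternatives.

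Among 6 rows for stress effectors and death genes, with a median log2 difference of -0.13, which turned to 0.036 over 19 rows with all libraries, 0 were higher and 1 lower: TRIB2, a relative of TRIB3, was 1.48-fold lower without SLEAR shRNA-3, with 80.02, 69.9 and 119 RPM against 112 RPM in Control, and so was higher in SLEAR shRNA-3 (limma-trend, adjusted p = 0.0193). TNFRSF10B, a death receptor induced by CHOP, had 43.0, 39.2 and 56.9 RPM against 59.9 RPM in Control and did not pass. None of 12 rows for the other branches of the endoplasmic reticulum response passed by limma-trend or limma-voom, and 2 had an unadjusted p under 0.05 by each (median log2 difference 0.21, and 0.012 over 18 rows with all libraries). XBP1, the factor of the IRE1 branch, had 86.1, 83.1 and 49.6 RPM against 71.6 RPM in Control. HSP90B1, a chaperone, had 88.7, 97.8 and 31.2 RPM against 121 RPM, and SDF2L1 had 249, 306 and 373 RPM against 221 RPM. HSPA5, or BiP, had 21.1, 26.7 and 0 RPM against 24.0 RPM, and the 0 in SLEAR shRNA-3 kept its mean under the minimum of that fit. Of 6 rows for p53 targets, the class that also holds SESN2 and DDIT4, 0 were higher and 2 lower, with a median log2 difference of 0.093, which turned to -0.097 over 11 rows with all libraries. XPC, a DNA repair factor, was 1.54-fold lower, with 35.9, 31.2 and 46.5 RPM against 52.2 RPM (limma-trend, adjusted p = 0.0388). ZMAT3 was 1.78-fold lower, with 16.3, 31.5 and 14.7 RPM against 41.1 RPM (limma-trend, adjusted p = 0.0127). Both lost the call under quantile normalization. Of 9 rows for T lymphocyte markers, 2 were higher (CD5 and LAT, both below Control in SLEAR shRNA-3) and 0 lower, with a median log2 difference of 0.19, or 0.097 over 13 rows with all libraries, and the summed level of that list was 4432 to 4539 RPM with SLEAR shRNA against 4054 RPM in Control. The part of such a shift in the results above was not tested.

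**Figure D4:**
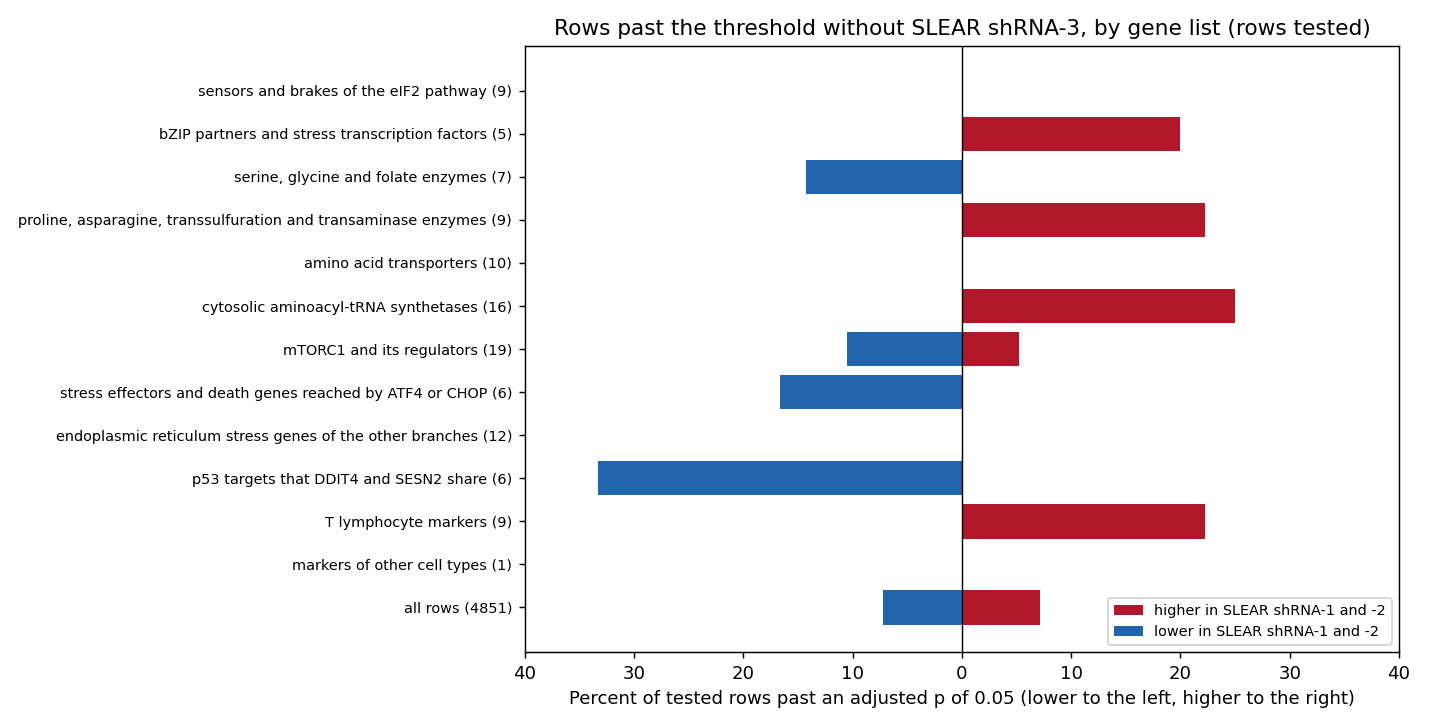
Percent of tested rows past an adjusted p of 0.05 in the limma-trend fit without SLEAR shRNA-3 (x axis), higher to the right and lower to the left, for each gene list and for all rows (y axis, rows tested in brackets). The synthetase list has 4 of 16 rows higher, and all rows have 7.11% higher and 7.26% lower.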

How the data were processed

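Transcript levels were deposited by the authors as RPM, reads scaled to library size, and per the submitters' processing notes FastQC, Bowtie2 and SAMtools were used with build hg19. Versions, read assignment and filters are not given in the sources used here. The RPM columns sum to 85.3% to 89.5% of the implied total. Low values are mostly whole multiples of 1 step per library (96.4% to 96.9% within 0.05 reads), but 5 to 28 rows lie below 1 read, so values were not treated as counts. Molecular identifiers are not mentioned, so intervals and floors cover counting error only.

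Of rows that were identical in every library and averaged 1 RPM or more, 1 was kept, leaving 16151 after the loss of 177. SLEAR shRNA was compared with Control by limma-trend (limma 3.58.1, R 4.3.3) on log2(RPM + 1). The fit held 12350 rows that reached 1 RPM in some library, p-values were adjusted by Benjamini-Hochberg, and 0.05 was the threshold. A fold change on that scale understates the change of low rows. With 1 Control library, the spread came from the SLEAR shRNA libraries, on 2 degrees of freedom, or 1 without SLEAR shRNA-3, and Control was assumed to vary like them. The second fit left out SLEAR shRNA-3 and kept the 4851 rows averaging 4 or more on that scale over all libraries. Scripts were tested on simulated data. SLEAR shRNA-1 and -2 differed beyond sampling noise (chi-square of 7.42 per degree of freedom over 6632 rows) and were kept as 2 libraries.

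The members, the lists and the second fit were chosen with earlier results of these data known. Named beside the members were list rows past the threshold in the second fit, the 3 rows per list with the smallest p there (of which some are not reported here), and the 5 rows nearest to ATF4 and to PHGDH; EIF2AK3, EIF2AK4, MTHFD2, XBP1, HSPA5, MARS, CD3D, CD3E, ITGAM and KRT18 were added after their values were seen. The alternatives were other pseudocounts (0.1 and 5 RPM), other scalings, other filters, limma-voom, array weights, summed rows and leaving out each SLEAR shRNA library. Promoter sequences and coordinates are RefSeq's, in GRCh38.p14, and GENCODE 29 was used for names of overlapping genes and pseudogenes only.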

Additional observations from a re-analysis of the deposited data

How the results depend on the processing

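Over all tested rows, limma-trend called 0 higher and 0 lower under every alternative but 1: with no filter on low values it called 1 higher and 376 lower, and the cause was not tested. Without SLEAR shRNA-3, among well measured rows, the 345 higher and 352 lower rows ranged from 287 to 347 and from 281 to 399. Among list genes in that fit, 9 calls were lost and 1 was gained under alternatives, each named beside its gene. Among members, 1 call was gained (ATF4 under quantile normalization) and 0 were lost. The sign turned for DDIT3 under quantile normalization (0.041), limma-voom (0.012) and array weights (0.093), for SHMT2 under array weights (-0.022) and for CHAC1 under array weights (0.35); the cause was not tested. Leaving out 1 SLEAR shRNA library at a time moved the log2 difference over all rows from -0.15 to 0.13 for DDIT3, from -0.12 to 0.23 for SHMT2, from -0.64 to 0.39 for CHAC1 and from -0.28 to 0.086 for DDIT4. Without SLEAR shRNA-1 SHMT2 stood at -0.12 and DDIT4 at 0.086, and without SLEAR shRNA-3 DDIT3 stood at 0.13 and CHAC1 at 0.39. ATF4, ASNS, PHGDH, TRIB3 and SESN2 stayed higher and PSAT1 lower in all alternatives run for them. For TRIB3 and SESN2 the log2 difference ranged from 0.12 to 0.83 and from 0.11 to 0.49, and neither passed in any. In the second fit, leaving out 1 more library leaves no spread and gives no test; without SLEAR shRNA-1 the value of SHMT2 there turned to -0.27, against 0.075. No paired analysis was possible because the Control library carries no number. Precision is limited by the single Control and, for DDIT3, TRIB3, CHAC1 and SESN2, by 10 to 112 reads per library.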
